A study of Homo sapiens with 8 samples.

Results

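The comparison set HGC27 cells overexpressing the p53 mutant R248Q against HGC27 cells overexpressing GFP, the control protein, with 2 mRNA libraries in each group. HGC27 is a human cell line established from a gastric carcinoma. The cell type label, shared by every group, gives it as lacking p53. The series holds 8 libraries, and the other 4 came from the same cells overexpressing p53 R175H or p53 R273H, again with 2 libraries each. The members were all genes that passed the count filter, 13213 of the 25435 in the table. The labels give no vector, promoter, expression level, clone or time after introduction of the constructs, and they do not say whether the 2 libraries of a group came from separate cultures. The p-values below may therefore measure technical spread only.

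p53 is a transcription factor that stops division or triggers death of damaged cells by switching on genes such as CDKN1A and BAX. Most p53 mutations in cancer are single substitutions in its DNA-binding domain. The arginines replaced in R248Q and R273H normally touch the DNA, and the one replaced in R175H helps to hold the domain in shape. Such proteins lose binding to p53 sites, and some are known to act on transcription through other factors.

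Total counts were 9769342 and 8928928 in the GFP libraries, 11659301 and 11599907 in the R248Q libraries, and 6800463 to 11788035 in the others. Levels are given as CPM (counts scaled to library size with TMM factors), and the error of a log2 fold change is its SE. Adjusted p-values come from edgeR's quasi-likelihood test over all genes tested. A floor of 3 counts corresponded to 0.308 and 0.333 CPM in GFP and to 0.256 and 0.257 CPM in R248Q. The cells carried little of an epithelial programme. CDH1 and EPCAM did not exceed 0.172 and 0.294 CPM in any library, whereas VIM, an intermediate filament of mesenchymal cells, was at 4641 to 5713 CPM before TMM scaling. None of 15 markers of differentiated stomach passed the count filter and 11 of them had no count in any library, so the gastric origin was not visible. Of the markers of blood, endothelium and neural or kidney cells, 3 of 16, 3 of 12 and 7 of 18 passed the filter. Their summed levels were 13.8 to 18.3 CPM, 3.53 to 5.02 CPM and 222.6 to 253 CPM over the GFP and R248Q libraries. In the neural and kidney list TUBB3, a tubulin, was the only member called, at 214 and 214 CPM in GFP and 182 and 179 in R248Q.

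Spread between the 2 GFP libraries was larger than between the replicates of any mutant. Over genes with at least 20 counts, chi-square per degree of freedom between replicates was 5.72 in GFP, 1.21 in R248Q, 1.60 in R175H and 1.51 in R273H. The difference followed transcript length, taken as the longest GENCODE 29 transcript of a gene. Genes were therefore described as short (under 2000 nucleotides), medium (2000 to under 8000) or long (8000 or more). The R248Q libraries also deviated from the other mutants along this axis, in the direction opposite to GFP replicate 1. The median log2 fold change of R248Q against GFP was -0.16 for genes under 1000 nucleotides and 0.40 for genes of 12000 to under 15000. Against GFP replicate 2 alone the same medians were -0.04 and 0.25, and against R175H and R273H, without any GFP library in the contrast, they were -0.06 and 0.18. What part of the differences of long genes belongs to the libraries and what part to the cells was not tested.

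**Figure D1:**
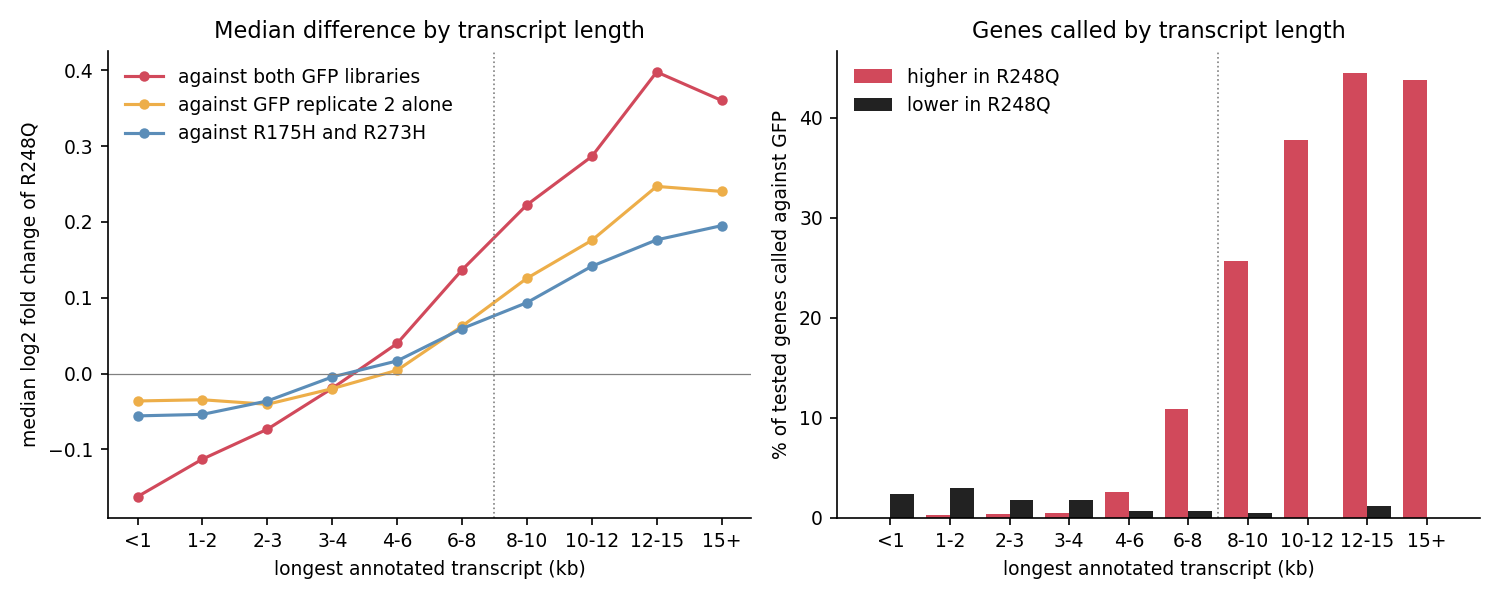
Left, median log2 fold change of R248Q (y axis) by the longest annotated transcript of a gene (x axis, kb), against both GFP libraries, GFP replicate 2 alone, or R175H and R273H. Right, percentage of tested genes called higher or lower in R248Q than in both GFP libraries. The dotted line marks 8000 nucleotides. In all 3 comparisons the medians of the bins at 8000 nucleotides or more lie above those of the bins under 2000. The share called higher is 0% under 1000 nucleotides, 44.5% at 12000 to under 15000 and 43.8% at 15000 or more.

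Against GFP, 645 genes were higher in R248Q (4.88% of those tested) and 190 were lower (1.44%) at an adjusted p below 0.05. The 2 R248Q libraries lay entirely outside the range of the 2 GFP libraries for all 835 of them. The calls rest on the same values, so this is not separate support. Over all genes tested, both R248Q libraries exceeded both GFP libraries in 25%. A difference of at least 2-fold was reached by 52 of the higher and 16 of the lower genes. The higher genes were mostly long, with a median length of 8676 nucleotides, against 2560 for the lower genes and 3661 for all genes tested. Among 2208 short genes, 5 were higher (0.226%) and 64 lower (2.9%). Among 9529 medium genes, 252 were higher (2.64%) and 120 lower (1.26%). Among 1152 long genes, 381 were higher (33.1%) and 5 lower (0.434%). On 324 genes without a length, 7 were higher (2.16%) and 1 lower (0.309%). Over short and medium genes, 257 of 11737 were higher (2.19%) and 184 lower (1.57%). Within them the share higher grew with length, from 0.407% at 2000 to under 3000 nucleotides to 10.9% at 6000 to under 8000. Among long genes it was 25.7% at 8000 to under 10000 and 44.5% at 12000 to under 15000. The class shares set beside gene lists below are therefore not matched to the length of each member.

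These counts depended on the groups fitted and on single libraries. The fit shared a single estimate of spread per gene over all groups, although the GFP replicates differed more than those of any mutant. With only the GFP and R248Q libraries in the fit, 327 genes were higher and 64 lower. Of these, 72 and 61 were under 8000 nucleotides. Against GFP replicate 2 alone, without replicate 1, 422 of the 13213 genes were higher (3.19%) and 152 lower (1.15%), 145 (1.24%) and 143 (1.22%) of them under 8000 nucleotides and 272 (23.6%) and 8 (0.694%) long. There the lone control is assumed to vary like the mutant groups, so the spread between the GFP libraries does not enter the error, and such a call is not independent support. Without GFP replicate 2, which leaves the control with the more deviant library, they were 1839 and 1608. Without R248Q replicate 1 they were 198 and 29, and without R248Q replicate 2 they were 199 and 27. Leaving out one library of R175H or R273H gave 474 to 500 higher and 96 to 106 lower. With each library's length trend removed, 421 genes were higher (3.19%) and 469 lower (3.55%). Among long genes the split became 169 higher (14.7%) and 174 lower (15.1%), beside 243 (2.07%) and 293 (2.5%) for shorter ones. The trend was fitted in every library, R248Q included, so its removal centres long genes and takes out any shift they share. Their median log2 fold change went from 0.26 to -0.02, and the near-even split follows from that centring. Of the calls on short and medium genes, 164 of 257 higher and 128 of 184 lower remained with the trend removed, 111 and 91 remained against GFP replicate 2 alone, and 87 and 86 remained with both changes in one fit, which called 1.3% of short and medium genes higher and 1.24% lower.

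Proteins of the smooth muscle contractile apparatus were among the larger falls of short and medium genes. ACTA2, smooth muscle alpha-actin, was at 27.2 and 26.3 CPM in GFP and 11.4 and 11.8 in R248Q (log2 fold change -1.20 ± 0.11, adjusted p = 4.39e-06). TAGLN, the actin-binding protein transgelin, was at 28.9 and 27.1 CPM in GFP and 15.4 and 11.5 in R248Q (log2 fold change -1.06 ± 0.13, adjusted p = 8.86e-05). Both R248Q libraries lay below both GFP libraries for each gene, which the choice of named genes required. The R175H libraries held 17.3 and 17.5 CPM of ACTA2 and 17.9 and 17.3 of TAGLN, and the R273H libraries 13.0 and 13.1 and 14.4 and 16.1. Both calls held under all 18 alternatives tried. ACTA2 shares 293 exon bases with ACTA2-AS1 and TAGLN 442 with PCSK7 on the opposite strand, and the strand setting of the counts is not given in the sources used here.

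Of 30 tested members of the contractile list, 6 fell and 3 rose, with a median log2 fold change of -0.03 beside -0.01 over all genes. Under 8000 nucleotides 6 of 26 members fell and 2 rose, beside 1.57% and 2.19% of all such genes. Of 4 long members 1 rose, beside 33.1% of all long genes. The falls were the actins ACTA2 and ACTG2, the calponin-family proteins TAGLN and TAGLN2, and the myosin light chains MYL9 and MYL6. MYL9 went from 37.7 and 31.5 CPM to 24.0 and 24.7 (log2 fold change -0.51 ± 0.10, adjusted p = 0.00603), and MYL6 from 526 and 405 to 369.6 and 378 (adjusted p = 0.0455). ACTG2, smooth muscle gamma-actin, was at 1.23 and 1.11 CPM in GFP and 0.256 and 0.0857 in R248Q (adjusted p = 0.0219), where it rested on 3 counts or fewer per library, so that no fold change is given. ACTG2 and ACTA2 are close copies, and reads that fit both are uncertain. The rises were the nonmuscle myosin heavy chains MYH10 (0.57 ± 0.08) and MYH9 (0.38 ± 0.06) and the actin cross-linker FLNA (0.31 ± 0.08). Their longest transcripts measure 7762, 7554 and 8516 nucleotides, and 10.9% of all genes of 6000 to under 8000 were higher. MYH10 was at 220.4 and 277 CPM in GFP and 373 and 364 in R248Q, and MYH9 at 518 and 598 in GFP and 729 and 719.6 in R248Q. Removal of the length trend gave log2 fold changes of 0.39 for MYH10, 0.21 for MYH9 and 0.10 for FLNA. The list gave 3 higher and 4 lower against GFP replicate 2 alone, and 2 higher and 7 lower with the length trend removed.

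Contractile genes are known targets of serum response factor, which binds the CArG box. The 250 bases before a RefSeq start of each of the 2 smooth muscle actins are shown because both genes fell. Each CArG box is in capitals (CC, then 6 bases that are each A or T, then GG). The complement of such a box is again one, so both strands were covered.
ACTA2, GRCh38.p14, chr10:88991338-88991587, minus strand: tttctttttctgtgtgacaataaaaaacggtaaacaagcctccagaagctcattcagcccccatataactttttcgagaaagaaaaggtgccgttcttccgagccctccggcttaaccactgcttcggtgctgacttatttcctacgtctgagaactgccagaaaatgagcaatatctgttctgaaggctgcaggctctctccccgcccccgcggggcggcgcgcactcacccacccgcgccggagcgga
ACTG2, GRCh38.p14, chr2:73892758-73893007, plus strand: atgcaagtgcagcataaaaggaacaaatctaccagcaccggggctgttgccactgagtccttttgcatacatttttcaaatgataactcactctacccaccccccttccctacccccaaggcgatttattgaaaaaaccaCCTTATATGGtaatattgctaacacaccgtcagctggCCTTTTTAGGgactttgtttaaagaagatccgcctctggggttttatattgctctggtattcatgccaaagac
The ACTG2 window holds 2 boxes, starting 110 and 73 bases before the start, and the ACTA2 window holds 0 of this strict form. For each gene only the first listed start was scanned. A box at another start of ACTA2, or outside the window, would therefore not be seen. Among the 27 contractile genes with a RefSeq promoter, 6 held a box (22.2%), against 407 of 35116 promoters of the same length (1.16%). The 35116 were not limited to a single start per gene. As contractile genes are known targets of serum response factor, this share describes the list and not R248Q. The 6 were ACTG2, SRF, CNN2, TPM4, MYLK and FLNA, of which ACTG2 fell, FLNA rose and the others were not called. TAGLN and MYL9, which also fell, had no promoter in the set used and were not scanned.

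Wnt ligands act through Frizzled and LRP receptors and are bound by secreted antagonists, whereas BMPs are ligands of the TGF-beta family that signal through SMAD proteins. SFRP4, a secreted Wnt-binding protein, was at 80.1 and 77.7 CPM in GFP and 37.1 and 34.4 in R248Q (log2 fold change -1.14 ± 0.07, adjusted p = 4.09e-07). Its R248Q libraries lay below GFP and near those of R273H, at 35.7 and 35.7 CPM, with R175H between at 53.1 and 50.8. The ligand WNT4 went from 5.24 and 4.88 CPM to 1.70 and 2.48 (log2 fold change -1.27 ± 0.25, adjusted p = 0.00582), and DAAM2, a formin that acts downstream of Wnt, from 6.78 and 8.65 to 3.07 and 4.54 (log2 fold change -1.01 ± 0.22, adjusted p = 0.0110). Of 13 tested members of the Wnt antagonist and receptor list, SFRP4 fell and the co-receptor LRP6 (0.42 ± 0.11) and KREMEN1, a receptor for Dickkopf proteins (0.28 ± 0.08), rose. Of 15 Wnt target genes, 0 passed in either direction in edgeR or in DESeq2, and at an unadjusted p below 0.05 there were 0 higher and 1 lower. With the length trend removed 1 was higher and 2 were lower, and without GFP replicate 2 the counts were 4 and 1. Their median was 0.05. The lowest p among them was that of APCDD1, at 132 and 126 CPM in GFP and 108 and 113 in R248Q (adjusted p = 0.0523). SFRP4 held under all 18 alternatives, WNT4 and DAAM2, which are in neither of these lists, under all except leaving out R248Q replicate 1, while LRP6 and KREMEN1 were lost against GFP replicate 2 alone and with the length trend removed.

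The BMP ligand GDF6 was at 2.78 and 2.11 CPM in GFP and 0.597 and 0.600 in R248Q (log2 fold change -2.01 ± 0.44, adjusted p = 0.0113), a few reads per library. BMP2 was at 9.25 and 9.43 CPM in GFP and 5.45 and 6.51 in R248Q (log2 fold change -0.64 ± 0.16). BAMBI, a decoy receptor, went from 55.1 and 53.8 to 41.5 and 39.9 CPM (log2 fold change -0.42 ± 0.08, adjusted p = 0.00510), and MSX2, a homeobox gene known to respond to BMP, from 180.3 and 178 to 143 and 148 (log2 fold change -0.30 ± 0.06, adjusted p = 0.00443). Of 35 tested members of the TGF-beta and BMP list, 3 fell (BAMBI, MSX2 and BMP2) and 4 rose, beside 1.44% and 4.88% of all genes tested. The list median was -0.02. The risers were the receptor BMPR2, which is long (0.54 ± 0.09), the latency proteins LTBP4 (0.33 ± 0.06) and LTBP1 (0.26), and the signal transducer SMAD3 (0.31 ± 0.08). LTBP4 was at 213 and 232 CPM in GFP and 278 and 282 in R248Q. The list gave 3 higher and 2 lower against GFP replicate 2 alone, and leaving out either R248Q library ended the calls of GDF6, BAMBI and MSX2.

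**Figure D2:**
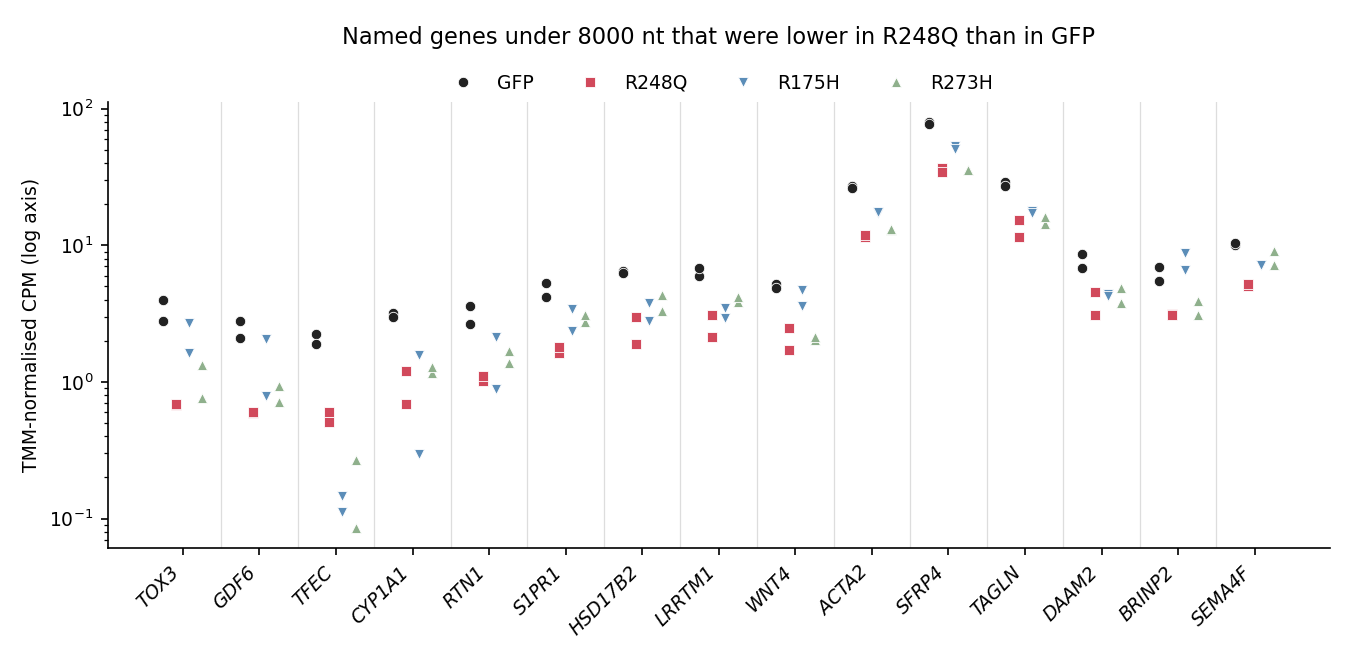
TMM-normalised CPM (y axis, log scale) in each library of GFP, R248Q, R175H and R273H for the 15 named genes under 8000 nucleotides with the largest falls in R248Q (x axis). Each point is 1 library. SFRP4 is at 80.1 and 77.7 in GFP and 37.1 and 34.4 in R248Q, and R248Q lies below GFP for every gene shown, which the choice of genes required.

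The other large falls among short and medium genes had levels of a few CPM. TOX3, a nuclear HMG-box protein, showed the largest among genes with a mean of at least 1 CPM, from 2.78 and 3.99 CPM to 0.682 and 0.685 (log2 fold change -2.28 ± 0.39, adjusted p = 0.00209), and its call held under all 18 alternatives. TFEC, a transcription factor of the MITF family, went from 2.26 and 1.89 to 0.511 and 0.600 CPM (log2 fold change -1.88 ± 0.41, adjusted p = 0.0121), and CYP1A1, the cytochrome induced by the aryl hydrocarbon receptor, from 3.19 and 2.99 to 1.19 and 0.685 (log2 fold change -1.71 ± 0.40, adjusted p = 0.0188). S1PR1, a receptor for sphingosine 1-phosphate, was at 4.21 and 5.32 CPM in GFP and 1.62 and 1.80 in R248Q (log2 fold change -1.47 ± 0.27, adjusted p = 0.00318). HSD17B2, which oxidises sex steroids, was at 6.48 and 6.32 in GFP and 2.98 and 1.88 in R248Q (log2 fold change -1.39 ± 0.25, adjusted p = 0.00275). Each of these sat lower in both R248Q libraries than in both controls, which the choice of genes required.

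SEMA4F, a transmembrane semaphorin, was at 9.97 and 10.3 CPM in GFP and 5.03 and 5.23 in R248Q (log2 fold change -0.98 ± 0.17, adjusted p = 0.00216). LRRTM1, a synaptic adhesion protein, was at 5.96 and 6.88 in GFP and 2.13 and 3.08 in R248Q (log2 fold change -1.29 ± 0.23), RTN1, a reticulon, at 3.60 and 2.66 in GFP and 1.02 and 1.11 in R248Q (-1.55 ± 0.36), and BRINP2 at 5.45 and 6.99 in GFP and 3.15 and 3.08 in R248Q (-0.99 ± 0.23). SEMA4F held under all 18 alternatives. RTN1 and TFEC were not called against GFP replicate 2 alone, and leaving out at least one R248Q library ended the calls of LRRTM1, RTN1, BRINP2, TFEC, CYP1A1, S1PR1 and HSD17B2. BRINP2 and RTN1 were also not called by DESeq2.

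In the insulin-like growth factor (IGF) axis, ligands are held by binding proteins outside the cell and act through the receptor IGF1R, while IGF2R clears IGF2. The 4 binding proteins called were lower and the receptors were higher in R248Q. IGFBP3 went from 42.0 and 46.1 CPM to 26.9 and 29.6 (log2 fold change -0.64 ± 0.09, adjusted p = 4.47e-04), and IGFBP5 from 169 and 193 to 139.6 and 146 (log2 fold change -0.34 ± 0.07, adjusted p = 0.00538). IGFBP6 (-0.40 ± 0.11) and IGFBP7 (-0.19 ± 0.05) fell as well. IGF2R was at 68.9 and 90.3 CPM in GFP and 138 and 139 in R248Q (log2 fold change 0.80 ± 0.09, adjusted p = 3.99e-05), and IGF1R at 27.7 and 34.3 in GFP and 46.5 and 51.8 in R248Q (log2 fold change 0.67 ± 0.10, adjusted p = 6.80e-04). The RNA-binding proteins IGF2BP1 (0.31 ± 0.08) and IGF2BP2 (0.29 ± 0.08) completed the 4 rises and 4 falls among 16 tested members, whose median was 0.15. The rises were 3 of 5 long members and 1 of 11 shorter ones, beside 33.1% of all long and 2.19% of all shorter genes. All 4 falls were among the 11 shorter members, beside 1.57% of all shorter genes. The receptors have longest transcripts of 14044 and 12235 nucleotides, whereas the binding proteins measure 1177 to 6215. The calls of IGFBP3 and IGF2R held under all 18 alternatives. After removal of the length trend the log2 fold changes were 0.39 for IGF2R and 0.31 for IGF1R, and with GFP replicate 1 also left out 0.34 and 0.29, where IGF1R was not called. The list gave 3 higher and 3 lower against GFP replicate 2 alone.

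The named rises among short and medium genes were chosen by the size of their fold change. H19, an imprinted noncoding RNA that lies beside IGF2, was at 3.60 and 4.21 CPM in GFP and 8.44 and 7.80 in R248Q (log2 fold change 1.06 ± 0.20, adjusted p = 0.00365). SLAIN1, a microtubule plus-end protein, was at 2.67 and 2.00 in GFP and 5.03 and 5.31 in R248Q (log2 fold change 1.14 ± 0.23, adjusted p = 0.00640). CNNM1 went from 6.89 and 10.2 to 16.5 and 13.8 CPM (log2 fold change 0.84 ± 0.16, adjusted p = 0.00546), ZSWIM6 from 7.40 and 8.76 to 14.8 and 13.2 (log2 fold change 0.80 ± 0.14, adjusted p = 0.00314), and NDNF, a secreted glycoprotein, from 5.65 and 4.55 to 10.2 and 8.82 (log2 fold change 0.89 ± 0.22, adjusted p = 0.0253). In all 5 genes both R248Q libraries exceeded both controls, which the choice of genes required. The calls of H19 and ZSWIM6 were lost without R248Q replicate 1, that of SLAIN1 without R248Q replicate 2, and that of NDNF without either. That of CNNM1 was lost without R248Q replicate 1, and also with the length trend removed and GFP replicate 1 left out.

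PARD6G, a scaffold of the PAR polarity complex, was at 0.617 and 0.111 CPM in GFP and 1.96 and 1.88 in R248Q (log2 fold change 2.33 ± 0.51, adjusted p = 0.0114), so that its second control value lay under the floor of 3 counts. The clustered protocadherins, which are neuronal adhesion proteins, gave PCDHGA10 at 1.13 and 1.33 CPM in GFP and 4.43 and 3.0 in R248Q (log2 fold change 1.59 ± 0.34) and PCDHB9 at 1.03 and 0.998 in GFP and 3.32 and 2.23 in R248Q (1.44 ± 0.35). PCDHGA10 shares exons with the other gamma protocadherins, so its own reads are uncertain. KRT8, an epithelial keratin, was at 1.34 and 1.11 CPM in GFP and 2.81 and 3.34 in R248Q (log2 fold change 1.32 ± 0.35, adjusted p = 0.0359), while its partner KRT18 did not exceed 0.0858 CPM in any library. It was the 1 member called among 4 tested epithelial markers. ESRP2, CLDN7 and MUC1, the other three, were not called and had log2 fold changes of -0.33, -0.12 and -0.0044. KRT8 overlaps 135 exon bases of KRT18 on the opposite strand in GENCODE 29.

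DAB2, an endocytic adaptor of LDL-family receptors, was at 1.44 and 1.22 CPM in GFP and 2.73 and 2.91 in R248Q (log2 fold change 1.07 ± 0.30, adjusted p = 0.0432). PLEKHH2 was at 1.03 and 0.887 in GFP and 2.56 and 2.74 in R248Q (log2 fold change 1.45 ± 0.34), TTC9 at 0.822 and 0.887 in GFP and 2.05 and 2.40 in R248Q (1.37 ± 0.38), and PLXNC1, a semaphorin receptor, at 0.514 and 0.998 in GFP and 1.96 and 2.06 in R248Q (1.41 ± 0.41). PLCH1, a phospholipase C, was at 2.88 and 4.88 in GFP and 7.07 and 7.37 in R248Q (0.91 ± 0.22). None of KRT8, PCDHB9, DAB2, PLEKHH2, TTC9, PLXNC1 and PLCH1 was called against GFP replicate 2 alone. PARD6G was lost without either R248Q library, and PCDHGA10 without R248Q replicate 1.

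**Figure D3:**
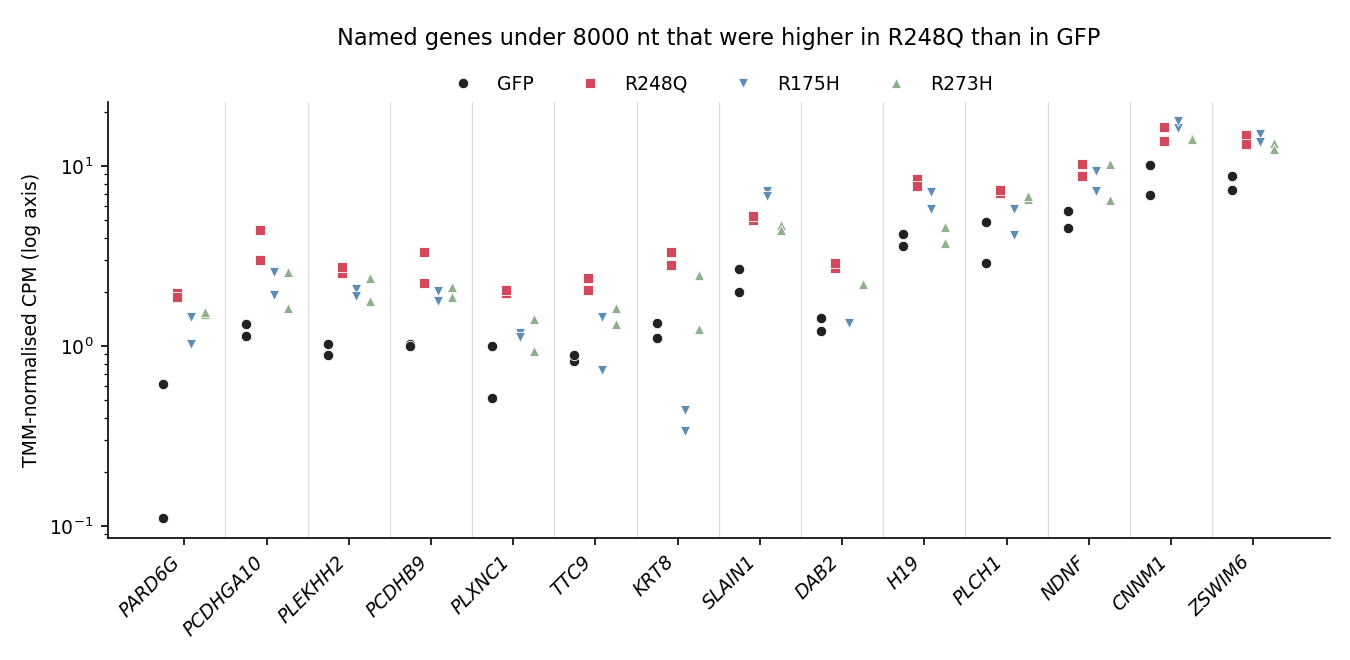
TMM-normalised CPM (y axis, log scale) in each library of GFP, R248Q, R175H and R273H for 14 named genes under 8000 nucleotides with large rises in R248Q (x axis). Each point is 1 library. CNNM1 is at 6.89 and 10.2 in GFP and 16.5 and 13.8 in R248Q, and R248Q lies above GFP for every gene shown, which the choice of genes required.

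Genes that wild-type p53 activates were mostly not called. Of 31 tested, SESN2, a stress sensor that restrains mTOR, was higher (30.1 and 37.9 CPM in GFP, 44.5 and 43.9 in R248Q, log2 fold change 0.38 ± 0.10, adjusted p = 0.0259) and BAX, a pro-apoptotic protein, was lower (83.7 and 70.9 CPM in GFP, 61.4 and 65.8 in R248Q, log2 fold change -0.28 ± 0.08, adjusted p = 0.0482). The median was -0.04. CDKN1A, the cell-cycle inhibitor, and MDM2, the ubiquitin ligase of p53, had log2 fold changes of -0.01 ± 0.14 and -0.04 ± 0.11, which were not called. Neither SESN2 nor BAX was called against GFP replicate 2 alone, and DESeq2 called 0 of the 31 in either direction.

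SLC7A11, the cystine transporter of system xc-, has a long transcript and was at 69.0 and 78.1 CPM in GFP and 129 and 120.4 in R248Q (log2 fold change 0.77 ± 0.07, adjusted p = 6.11e-06), and held under all 18 alternatives. R175H had 124 and 123 CPM and R273H 107 and 104. ALDH1L2, a mitochondrial folate enzyme, went from 51.2 and 63.8 to 85.9 and 82.7 (log2 fold change 0.56 ± 0.09, adjusted p = 8.39e-04), SLC7A1, a cationic amino acid transporter, from 213 and 271 to 328 and 313 (log2 fold change 0.40 ± 0.08, adjusted p = 0.00704), and GPT2, a mitochondrial alanine transaminase, from 158 and 153 to 182 and 188 (log2 fold change 0.25 ± 0.06, adjusted p = 0.0148). Together with SESN2, DDIT4 (0.19 ± 0.05) and SLC7A5 (0.21 ± 0.06) they were the 7 of 44 tested genes of the ATF4 stress response that rose, with 0 lower and a median of 0.09. Under 8000 nucleotides 6 of its 42 members rose, beside 2.19% of all such genes. ALDH1L2 and SLC7A1 have longest transcripts of 7547 and 7347 nucleotides, and 10.9% of all genes of 6000 to under 8000 were higher. With the length trend removed the log2 fold change of SLC7A11 was 0.50. The list gave 13 higher with the length trend removed and 11 against GFP replicate 2 alone. Of 23 NRF2 targets, SLC7A11 and the export pump ABCC1 rose (88.3 and 92.4 CPM in GFP, 116 and 118 in R248Q).

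Among 30 genes of sterol and fatty acid synthesis, 7 rose and 0 fell, with a median of 0.09. The 7 were 5 of 28 members under 8000 nucleotides and both long members, ACACA and FASN, beside 2.19% of all shorter and 33.1% of all long genes. ACACA, acetyl-CoA carboxylase, was at 188 and 227 CPM in GFP and 292 and 291 in R248Q (log2 fold change 0.49 ± 0.07, adjusted p = 6.62e-04), and FASN, fatty acid synthase, at 1120.0 and 1416 in GFP and 1804 and 1790.0 in R248Q (log2 fold change 0.50 ± 0.08, adjusted p = 8.82e-04). SCD, the stearoyl-CoA desaturase, was at 2539 and 2834 in GFP and 3136 and 3185 in R248Q (log2 fold change 0.23 ± 0.05, adjusted p = 0.0142). The sterol enzymes HMGCS1 (0.20 ± 0.05), SQLE (0.18 ± 0.05) and DHCR7 (0.22 ± 0.06) and the regulator SREBF2 (0.20 ± 0.06) rose by smaller steps. The list gave 6 higher against GFP replicate 2 alone and 6 with the length trend removed. The calls of ACACA and FASN held under all 18 alternatives, but their log2 fold changes were 0.21 and 0.29 with the length trend removed, and 0.19 and 0.23 with GFP replicate 1 also left out. SCD was lost without either R248Q library.

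Some chaperones fell. Of 38 heat shock proteins and chaperonins, 9 fell and 0 rose, with a median of -0.15, beside falls in 2.9% of short and 1.26% of medium genes and a median of -0.12 over all short genes. Against GFP replicate 2 alone 7 fell. DESeq2 called 2 of them lower, and 0 passed without either R248Q library. The cochaperone AHSA1 went from 289 and 258 to 225 and 223 CPM (log2 fold change -0.29 ± 0.06, adjusted p = 0.00884), and HSPA8, the constitutive cytosolic HSP70, from 2688 and 2603 to 2355 and 2302 (log2 fold change -0.18 ± 0.05, adjusted p = 0.0264). The chaperonin subunit CCT2 (-0.22 ± 0.06) and DNAJB1 (-0.22 ± 0.06) fell likewise, as did HSP90AA1, CRYAB, CCT8, DNAJA1 and FKBP4. Of 24 chaperones and stress regulators of the endoplasmic reticulum, 4 fell (MANF -0.37 ± 0.07, HSPA5 -0.20 ± 0.05, SDF2L1 -0.29 ± 0.08 and DNAJB11 -0.26 ± 0.07) and the transcription factor CREB3L2 rose (0.38 ± 0.09). These changes were small, and all 9 heat shock calls and the 4 reticulum calls were on genes under 8000 nucleotides. AHSA1, HSPA8 and MANF lost their calls without either R248Q library.

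The medians of proteasome, respiratory chain and ribosomal protein genes depended on GFP replicate 1. Of 33 proteasome subunits, PSMC6 (-0.32 ± 0.07), PSMB4 (-0.22 ± 0.06) and PSMD6 (-0.27 ± 0.08) fell, with a median of -0.15. Against GFP replicate 2 alone the median was -0.06 and 1 was called. Of 40 nuclear-encoded respiratory chain genes, ATP5O fell (-0.24 ± 0.07), with a median of -0.13 that became -0.03 against GFP replicate 2 alone. For 47 ribosomal protein genes the medians were -0.11 and 0.01, and 0 were called in either comparison in edgeR, nor in DESeq2 with both controls. At an unadjusted p below 0.05, 0 were higher and 13 lower, beside 1616 and 1351 of all 13213 genes tested. Summed ribosomal protein levels were 61482 and 53902 CPM in GFP and 53595 and 53795 CPM in R248Q, so that the R248Q libraries lay near the second control. With the length trend removed, 6 proteasome, 9 respiratory chain and 2 ribosomal protein genes were lower, with medians of -0.07, -0.05 and -0.02.

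Glycolysis and hypoxia genes, immune genes and cell-state regulators changed in few members against GFP. Of 40 hypoxia and glycolysis genes, TXNIP, an inhibitor of glucose uptake, fell from 32.6 and 30.6 to 21.5 and 21.4 CPM (log2 fold change -0.56 ± 0.10, adjusted p = 0.00250), HK1 fell (-0.36 ± 0.07), ADM fell (-0.38 ± 0.10) and HK2 rose (0.23 ± 0.07). TXNIP held under all 18 alternatives, while HK2 and ADM were lost against GFP replicate 2 alone. Of 22 interferon-responsive genes, 3 fell, beside 2.9% of all short and 1.26% of all medium genes. The 3 were neighbouring antiviral membrane proteins. IFITM2 was at 94.4 and 86.6 CPM in GFP and 67.7 and 65.1 in R248Q (log2 fold change -0.45 ± 0.07, adjusted p = 0.00102), IFITM3 at 257 and 216 in GFP and 180.2 and 191 in R248Q, and IFITM1 at 40.5 and 38.4 in GFP and 31.2 and 30.6 in R248Q. These 3 are genes of related sequence, so some reads may be split between them. IFITM2 held under all 18 alternatives. IFITM1 was not called by DESeq2 or with the length trend removed, and IFITM3 was lost without either R248Q library. Of 13 NF-kB genes, the chemokine CCL2 fell, from 6.78 and 7.54 to 3.41 and 3.86 CPM (log2 fold change -0.98 ± 0.21, adjusted p = 0.0119). Of 20 mesenchymal regulators, the hyaluronan receptor CD44 (-0.33 ± 0.07) and THY1 (-0.30 ± 0.08) fell and 0 rose. CCL2 and THY1 were not called by DESeq2, and CCL2, CD44 and THY1 were lost without either R248Q library. VIM had a log2 fold change of -0.08 ± 0.04 and the repressor of epithelial genes ZEB1 one of 0.23 ± 0.09, neither past the threshold.

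Among long genes the rises in R248Q were broad. Of 1152 tested, 946 (82.1%) had a positive log2 fold change, and in 725 (62.9%) both R248Q libraries exceeded both GFP libraries, against 3298 of 13213 genes of any length (25%). The median was 0.26 against both controls and 0.14 against GFP replicate 2 alone, beside -0.01 over all genes against both controls. The results that follow on long genes are given with that background, since most of their length class moved the same way. Without GFP replicate 1 or 2, 272 and 631 long genes were higher, and without R248Q replicate 1 or 2, 159 and 165.

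SYNE2, which encodes the giant nuclear envelope protein nesprin-2, showed the largest rise of a named long gene. It was at 20.8 and 27.4 CPM in GFP and 83.3 and 78.0 in R248Q (log2 fold change 1.75 ± 0.11, adjusted p = 4.06e-07). R175H had 42.3 and 43.5 CPM and R273H 43.8 and 36.9, so that the R248Q libraries exceeded all 6 others. The log2 fold change was 1.56 against GFP replicate 2 alone and 1.20 with the length trend removed. SYNE2 was the 1 member called among 17 tested genes of the lamina and of the bridges that link it to the cytoskeleton, whose median was -0.02. SYNE1, its paralogue with an even longer transcript, was at 1.34 and 1.55 CPM in GFP and 1.11 and 1.54 in R248Q (log2 fold change -0.12 ± 0.36), and lamin A, LMNA, at 1093 and 1033 in GFP and 976 and 967 in R248Q (-0.13 ± 0.05).

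**Figure D4:**
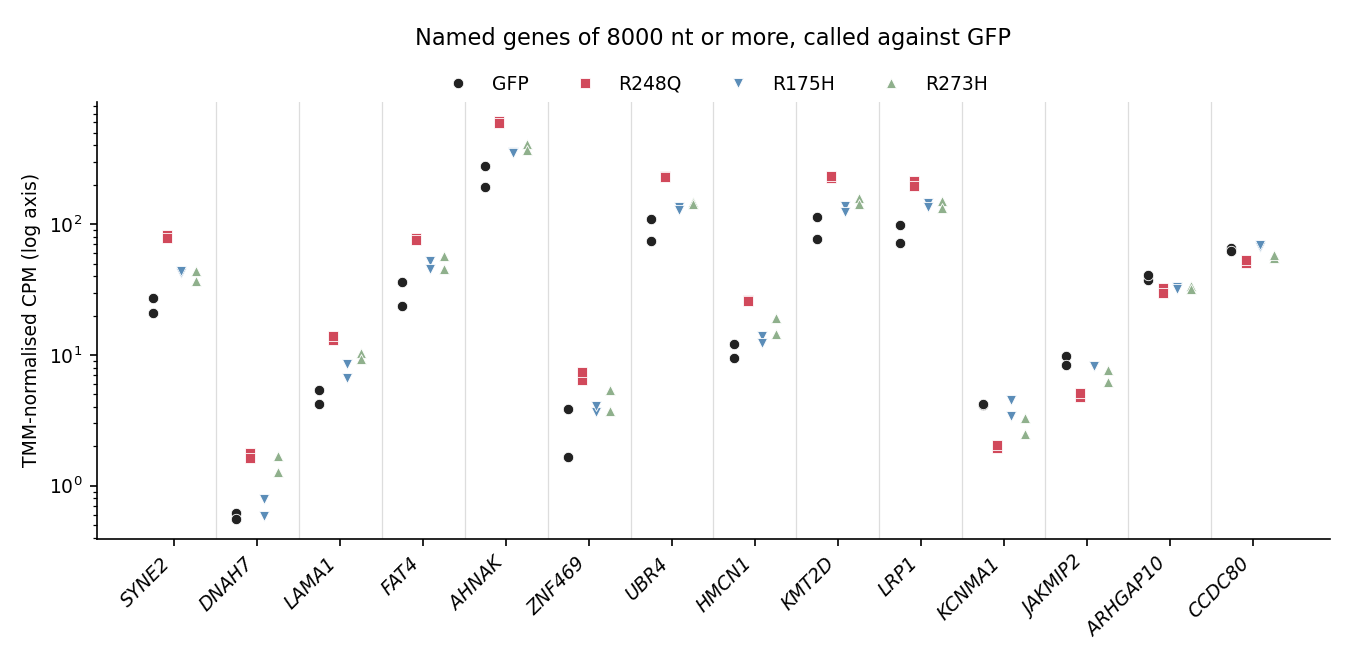
TMM-normalised CPM (y axis, log scale) in each library of GFP, R248Q, R175H and R273H for the named genes of 8000 nucleotides or more (x axis), the 10 largest rises followed by the 4 largest falls. Each point is 1 library. SYNE2 is at 20.8 and 27.4 in GFP and 83.3 and 78.0 in R248Q, and GFP replicate 1 is the lowest of the 8 libraries for every riser except DNAH7.

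The basement membrane is the sheet of laminins, type IV collagen and proteoglycans under epithelia and around vessels. Of 17 tested members, 9 were higher in R248Q and 0 lower, with a median of 0.39. The 9 were 6 of 8 long members and 3 of 9 shorter ones, beside 33.1% of all long and 2.19% of all shorter genes. With the length trend removed 9 were higher, and the median was 0.28 against GFP replicate 2 alone. LAMA5, a laminin alpha chain, was at 265 and 342 CPM in GFP and 564 and 559 in R248Q (log2 fold change 0.89 ± 0.09, adjusted p = 1.29e-05). LAMA1, the embryonic alpha chain, was at 4.21 and 5.43 in GFP and 13.0 and 14 in R248Q (log2 fold change 1.49 ± 0.17, adjusted p = 6.01e-05). HSPG2, the proteoglycan perlecan, was at 65.3 and 88.5 in GFP and 159 and 165 in R248Q (log2 fold change 1.08 ± 0.10, adjusted p = 4.92e-06), and FRAS1, of the Fraser complex, at 26.2 and 31.7 in GFP and 56.4 and 61.5 in R248Q (log2 fold change 1.03 ± 0.10, adjusted p = 6.31e-06). LAMA2 (0.73 ± 0.09) and FREM2 (0.77 ± 0.14) were the other long risers. The medium members COL4A5 (0.48 ± 0.08), the proteoglycan AGRN (0.39 ± 0.07) and LAMC1 (0.35 ± 0.06) also rose. AGRN was at 541 and 645 CPM in GFP and 776 and 774 in R248Q, and COL4A5 at 35.8 and 38.5 in GFP and 53.4 and 50.3 in R248Q. Removal of the length trend gave log2 fold changes of 0.55 for LAMA5, 1.19 for LAMA1, 0.66 for HSPG2 and 0.58 for FRAS1. HSPG2 shares 1244 exon bases with LDLRAD2 on the opposite strand.

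Of 40 interstitial matrix genes, 4 were higher and 1 was lower, with a median of -0.02. The counts were 3 and 4 against GFP replicate 2 alone, and 4 and 4 with the length trend removed. FBN2, the microfibril protein fibrillin-2, was at 32.0 and 40.6 CPM in GFP and 80.6 and 82.3 in R248Q (log2 fold change 1.17 ± 0.09, adjusted p = 1.50e-06). POSTN, the matricellular protein periostin, has a medium transcript and was at 221 and 222 in GFP and 294 and 301 in R248Q (log2 fold change 0.43 ± 0.05, adjusted p = 1.17e-04), and COL1A1, the type I collagen chain, was at 1405 and 1506 in GFP and 1893 and 1875 in R248Q (log2 fold change 0.37 ± 0.05, adjusted p = 4.26e-04). COL12A1 rose (0.54 ± 0.13) and the small proteoglycan LUM fell (-0.28 ± 0.06). The calls of FBN2, POSTN and COL1A1 held under all 18 alternatives. After removal of the length trend the log2 fold changes were 0.84 for FBN2, 0.45 for POSTN and 0.24 for COL1A1. POSTN was at 291 and 292 CPM in R273H and 212 and 206 in R175H, and COL1A1 at 1863 and 1842 in R273H and 1292 and 1388 in R175H. In both genes the R248Q and R273H libraries lay above the GFP libraries and the R175H libraries below them.

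Some large cell-surface proteins rose as well. Of 14 tested giant cadherins and relatives, 7 were higher and 0 lower, with a median of 0.44. The 7 were 5 of 10 long members and 2 of 4 shorter ones, beside 33.1% of all long and 2.19% of all shorter genes. The median was 0.27 against GFP replicate 2 alone, and with the length trend removed 5 were higher and 1 lower. FAT4 and FAT1, atypical cadherins that feed into the Hippo pathway, rose by log2 fold changes of 1.38 ± 0.14 and 1.20 ± 0.12. FAT4 was at 23.7 and 35.9 CPM in GFP and 77.9 and 76.3 in R248Q, and FAT1 at 85.5 and 129 in GFP and 245 and 247 in R248Q. CELSR1, a planar polarity cadherin (0.76 ± 0.10), and PCDH17 (0.66 ± 0.12) followed. Of 17 LDL receptor relatives and adaptors, 4 rose, with a median of 0.16. They were 3 of 9 long members, near the share of all long genes, and 1 of 8 shorter ones. LRP1, an endocytic receptor, was at 71.4 and 99.2 in GFP and 212 and 195 in R248Q (log2 fold change 1.26 ± 0.11, adjusted p = 3.04e-06), and the sorting receptor SORL1 at 21.6 and 28.7 in GFP and 44.7 and 44.6 in R248Q (log2 fold change 0.83 ± 0.11, adjusted p = 1.54e-04), while LRP6 and DAB2 were the other two. Removal of the length trend gave log2 fold changes of 0.92 for FAT4, 0.78 for FAT1, 0.83 for LRP1 and 0.51 for SORL1. Of 31 axon guidance genes, 10 rose, 6 of 9 long members and 4 of 22 shorter ones, with a median of 0.24. But 1 rose with the length trend removed, and the median was 0.13 against GFP replicate 2 alone. The gene that held under all 18 alternatives was the secreted ligand SLIT2, of medium length (39.4 and 43.6 CPM in GFP, 66.1 and 60.7 in R248Q, log2 fold change 0.61 ± 0.10, adjusted p = 9.94e-04).

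Histone H3 lysine 4 methyltransferases of the KMT2 family mark enhancers and promoters. Of 21 tested members of these complexes, 8 were higher in R248Q and 0 lower. All 8 long members were among them, and 0 of the 13 shorter ones. KMT2D was at 77.4 and 113 CPM in GFP and 225 and 233 in R248Q (log2 fold change 1.27 ± 0.11, adjusted p = 5.01e-06), KMT2C at 53.9 and 76.4 in GFP and 131 and 131 in R248Q (log2 fold change 1.01 ± 0.11, adjusted p = 2.76e-05), and KMT2A at 47.3 and 75.8 in GFP and 146 and 142 in R248Q (log2 fold change 1.23 ± 0.13, adjusted p = 2.77e-05). ASH1L (0.69 ± 0.10), HCFC1 (0.52 ± 0.08), KMT2B (0.44 ± 0.08), SETD1B (0.55 ± 0.11) and NCOA6 (0.42 ± 0.09) were the other five. The median was 0.62 for the long members and 0.02 for the shorter ones. After removal of the length trend the log2 fold changes were 0.76 for KMT2D, 0.54 for KMT2C and 0.77 for KMT2A. With GFP replicate 2 as the only control 8 members were higher, and with the length trend removed 7.

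Other chromatin regulators and giant enzymes are given by length as well. Of 37 remodellers and histone modifiers, 23 were higher and 0 lower, 18 of 22 long members and 5 of 15 shorter ones. The acetyltransferase EP300 was at 69.0 and 96.9 CPM in GFP and 161 and 157 in R248Q (log2 fold change 0.94 ± 0.11, adjusted p = 4.21e-05), CREBBP at 101 and 129 in GFP and 177 and 181 in R248Q (log2 fold change 0.64 ± 0.08, adjusted p = 1.56e-04), and the SWI/SNF subunit ARID1A at 90.3 and 117 in GFP and 171 and 177 in R248Q (log2 fold change 0.75 ± 0.09, adjusted p = 6.01e-05). The 5 shorter risers were CHD4, PBRM1, SMARCA2, SMARCC2 and SMARCC1, with log2 fold changes of 0.30, 0.35, 0.23, 0.20 and 0.21. Of 22 ubiquitin ligases, 11 of 14 long members and 0 of 8 shorter ones were higher. UBR4, which recognises N-terminal degradation signals, was at 74.8 and 109 in GFP and 233 and 229.8 in R248Q (log2 fold change 1.34 ± 0.11, adjusted p = 1.73e-06), and HUWE1 at 239 and 328 in GFP and 617 and 599 in R248Q (log2 fold change 1.10 ± 0.10, adjusted p = 5.01e-06). Of 19 DNA damage kinases and partners, 6 of 8 long members and 1 of 11 shorter ones were higher. PRKDC, the catalytic subunit of DNA-PK, was at 398 and 559 in GFP and 987 and 958 in R248Q (log2 fold change 1.02 ± 0.10, adjusted p = 1.54e-05), SMG1, a kinase of nonsense-mediated decay, at 56.0 and 66.1 in GFP and 124 and 131 in R248Q (log2 fold change 1.06 ± 0.08, adjusted p = 1.50e-06), and ATM had a log2 fold change of 0.64 ± 0.08. Removal of the length trend gave log2 fold changes of 0.68 for EP300, 0.33 for CREBBP, 0.54 for ARID1A, 0.89 for UBR4, 0.67 for HUWE1, 0.63 for PRKDC, 0.60 for SMG1 and 0.25 for ATM. Against GFP replicate 2 alone the 3 lists gave 18, 10 and 6 higher, and with the length trend removed 14, 9 and 4.

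Of 42 genes of G2 and mitosis, MKI67 (163 and 223 CPM in GFP, 350.3 and 338 in R248Q, log2 fold change 0.84 ± 0.10, adjusted p = 1.02e-04), CENPF (0.53 ± 0.07) and ASPM (0.42 ± 0.09), all long, were higher, and CCNB1 (-0.23 ± 0.05) and BIRC5 (-0.23 ± 0.06), both shorter, were lower. The median was -0.03. Of 43 S phase genes, the long POLE was higher (0.36 ± 0.08) and GINS3 lower (-0.32 ± 0.09), with a median of -0.07. The calls of MKI67 and CENPF held under all 18 alternatives, but their log2 fold changes were 0.47 and 0.23 with the length trend removed, and 0.38 and 0.22 with GFP replicate 1 also left out. The calls of ASPM and POLE were lost with the length trend removed.

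Further single long genes stood out by size of change. AHNAK, a giant scaffold under the plasma membrane, was at 193 and 277 CPM in GFP and 611 and 594 in R248Q (log2 fold change 1.36 ± 0.11, adjusted p = 1.50e-06). HMCN1, the matrix protein hemicentin-1, was at 9.46 and 12.1 in GFP and 26.3 and 26.0 in R248Q (log2 fold change 1.29 ± 0.14, adjusted p = 3.99e-05). After removal of the length trend the log2 fold changes were 0.86 for AHNAK and 0.79 for HMCN1. ZNF469 (1.35 ± 0.28) and the dynein heavy chain DNAH7 (1.52 ± 0.42) were rare transcripts whose calls were lost against GFP replicate 2 alone. Against the trend of their class, 5 long genes were lower, and the 4 largest falls were as follows. KCNMA1, the BK potassium channel, was at 4.11 and 4.21 CPM in GFP and 1.96 and 2.06 in R248Q (log2 fold change -1.05 ± 0.26, adjusted p = 0.0249), and JAKMIP2 at 9.87 and 8.43 in GFP and 4.77 and 5.14 in R248Q (log2 fold change -0.89 ± 0.18, adjusted p = 0.00582). ARHGAP10 fell by a smaller step (-0.34 ± 0.09), as did the secreted protein CCDC80 (-0.29 ± 0.07). KCNMA1 and CCDC80 were not called against GFP replicate 2 alone, and JAKMIP2 was lost without either R248Q library.

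**Figure D5:**
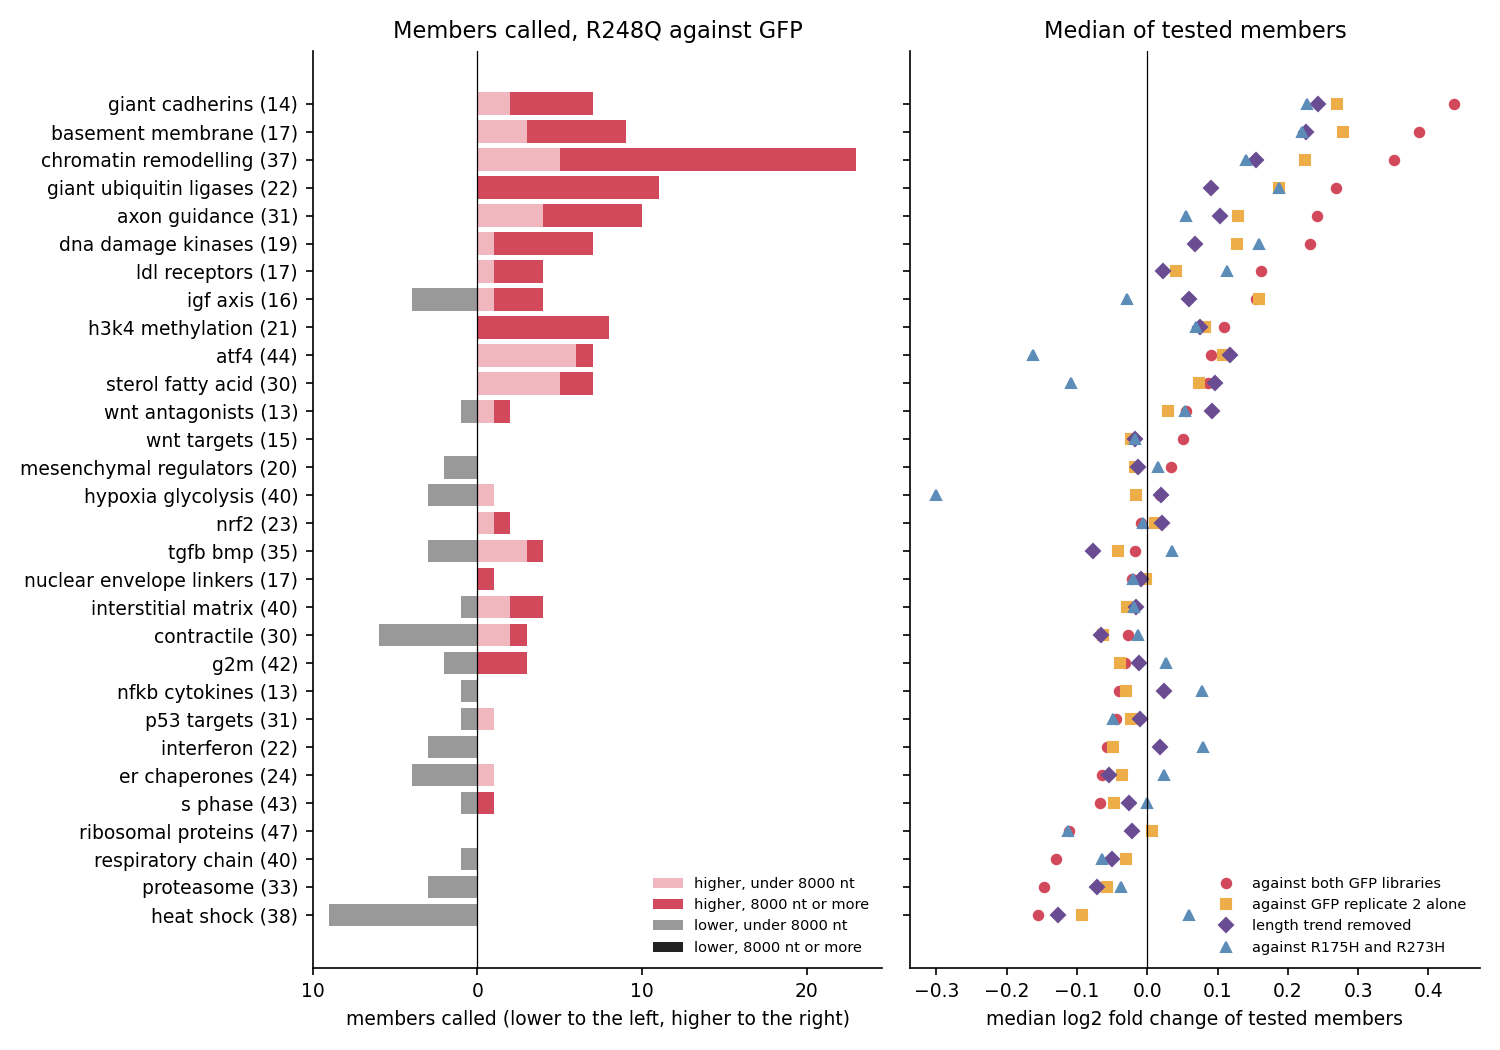
Left, number of members of each gene list (y axis, tested members in brackets) called higher or lower in R248Q than in GFP (x axis), split at 8000 nucleotides. Right, median log2 fold change of the tested members (x axis) against both GFP libraries, against GFP replicate 2 alone, with the length trend removed, and against R175H and R273H. Basement membrane has 9 of 17 higher and heat shock 9 of 38 lower, and most calls in the lists with the highest medians are on long genes.

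The list counts differed in how far they depended on single libraries. Without R248Q replicate 1 or 2, the number higher was 8 and 8 for basement membrane (9 with all libraries), 9 and 9 for ubiquitin ligases (11), 7 and 5 for KMT2 genes (8), and 12 and 10 for chromatin remodellers (23). It was 2 and 2 for ATF4 genes (7), 2 and 2 for sterol and fatty acid genes (7), 1 and 1 for axon guidance (10) and 4 and 4 for cadherins (7). The number lower was 2 and 2 for contractile genes (6), 1 and 1 for the IGF axis (4) and 0 in both for heat shock (9). With GFP replicate 1 as the only control, 26 heat shock, 25 proteasome, 31 respiratory chain and 46 ribosomal protein genes came out lower. For 8 lists with 0 members higher and 14 with 0 lower against GFP, DESeq2 also called 0 in that direction. At an unadjusted p below 0.05, 7 of 228 members of the former were higher and 23 of 354 members of the latter lower. Of all 13213 genes tested, 1616 were higher and 1351 lower at that level.

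R248Q was also set directly against the mean of R175H and R273H, a contrast of the 6 mutant libraries. It shares the R248Q libraries with the comparison against GFP, so they are not independent. There 176 genes were higher (1.33%) and 184 lower (1.39%). Of 1152 long genes 111 were higher (9.64%) and 5 lower (0.434%), with a median of 0.12, beside 63 (0.537%) and 178 (1.52%) of the 11737 shorter ones. In 459 (39.8%) both R248Q libraries exceeded all 4 other mutant libraries, against 12.4% of all genes tested. Without R248Q replicate 1 or 2 the counts fell to 15 and 21 higher and 29 and 27 lower. Without 1 of the GFP libraries, which enter only the estimate of spread, they were 825 or 818 higher and 746 lower. Leaving out 1 library of R175H or R273H gave 51 to 110 higher and 71 to 97 lower.

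SYNE2 (log2 fold change 0.95), FBN2 (0.89), GRIK3 (0.88) and HMCN1 (0.82), all long, were called above the other mutants. FBN2 was at 39.1 and 36.9 CPM in R175H and 51.5 and 50.3 in R273H, against 80.6 and 82.3 in R248Q (log2 fold change 0.89 ± 0.07, adjusted p = 1.01e-05). KRT8 was at 0.443 and 0.336 CPM in R175H and 1.24 and 2.48 in R273H (log2 fold change 1.84 ± 0.34, adjusted p = 0.00655). GRIK3, a kainate receptor subunit, was at 3.39 and 3.25 CPM in R175H, 9.07 and 6.83 in R273H and 9.71 and 9.17 in R248Q (log2 fold change 0.88 ± 0.16, adjusted p = 0.00655), and GFP at 6.27 and 7.76 was not called against R248Q. FAR2P1, a pseudogene, was at 2.95 and 3.36 CPM in R175H, 2.93 and 2.65 in R273H and 5.11 and 5.65 in R248Q (log2 fold change 0.85 ± 0.18, adjusted p = 0.0168), and its reads could belong to the gene it copies. Of the lists, basement membrane had 8 of 17 members higher and 1 lower, and the KMT2 list 7 of 21 higher. Ubiquitin ligases had 9 of 22 higher, chromatin remodellers 10 of 37 and DNA damage kinases 5 of 19, with 0 lower in the last 4 lists. Over all genes tested 1.33% were higher, 9.64% of long genes and 0.537% of shorter ones. In the order given, 8, 8, 14, 22 and 8 tested members of these lists are long. The counts here were not split by length. Of the 31 axon guidance genes 0 were called in edgeR, with 7 higher and 0 lower at an unadjusted p below 0.05, and of the 30 contractile genes also 0, with 4 higher and 5 lower at that level.

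Below the other mutants, SNTB1, a syntrophin of the dystrophin complex, was at 17.8 and 17.6 CPM in R248Q, 38.1 and 38.0 in R175H and 28.0 and 25.6 in R273H (log2 fold change -0.85 ± 0.08, adjusted p = 4.72e-05), and it was also below GFP, at 27.1 and 28.2 (log2 fold change -0.64 ± 0.10, adjusted p = 7.93e-04). The remaining large differences lay mostly in R175H. APLN, the ligand apelin, was at 5.97 and 5.65 CPM in R248Q, 19.9 and 20.6 in R175H and 7.29 and 8.45 in R273H (log2 fold change -1.12 ± 0.13, adjusted p = 1.94e-04), while its level in GFP, 7.20 and 6.88, was not called against R248Q. FGF21, KCNN1 and RERG were also highest in R175H and not called against GFP, with log2 fold changes of -1.07, -0.88 and -0.78 against the other mutants. BEST4 was at 2.51 and 2.69 CPM in R175H and at 0.341 and 0.0857 in R248Q, where it was near the floor of 3 counts. In the hypoxia and glycolysis list 28 of 40 members were lower in R248Q than in the mean of the other mutants and 1, TXNIP, was higher. Over all genes tested the shares were 1.39% and 1.33%. Of those lower, HK2 was at 147 and 141 CPM in R248Q, 217 and 219 in R175H and 140 and 141 in R273H. It thus lay near R273H, while HK1 and ADM lay below both other mutants. TXNIP was at 21.5 and 21.4 CPM in R248Q, 6.20 and 6.95 in R175H and 22.8 and 20.1 in R273H, so R248Q lay above R175H and overlapped R273H. CA9, a carbonic anhydrase induced by hypoxia, was at 11.5 and 11.3 CPM in R248Q, 40.0 and 46.3 in R175H and 9.07 and 11.9 in R273H. In the ATF4 list 17 of 44 were lower than that mean, beside 1.39% of all genes tested, and 0 higher. DDIT4 was at 576 and 588 CPM in R248Q, 1383 and 1392 in R175H and 641 and 678 in R273H. For CA9 and DDIT4 the R175H libraries were the highest of the series. Heat shock genes were higher in R248Q in 5 of 38 members, beside 1.33% of all genes tested, with 0 lower. HSPA8 was at 2355 and 2302 CPM in R248Q, 1724 and 1739 in R175H and 2328 and 2368 in R273H.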

How the data were processed

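The submitters deposited raw counts per gene for 8 mRNA libraries, with reads aligned with STAR 2.5 to hg19 after bcl2fastq, per the submitters' processing notes. Libraries were made from 100 ng of total RNA with the Kapa mRNA Hyper kit, per the labels' protocols. For the counting program, its annotation and its strand setting, no entry was found in those sources.

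From these counts, 13213 genes passed edgeR's filterByExpr (minimum count 10, minimum total 15). They were tested with edgeR 4.0.16 in R 4.3.3, a quasi-likelihood fit with 1 mean per group over all 8 libraries, TMM scaling and Benjamini-Hochberg adjustment at 0.05, which left 4 residual degrees of freedom. The SE of a log2 fold change is its size divided by the root of the F statistic. The script was tested on simulated data. Limma 3.58.1 (voom) and DESeq2 1.42.0 served as alternatives. Transcript lengths came from GENCODE 29 by symbol and were found for 97.5% of genes tested. The length trend was removed with a loess curve per library (span 0.3). Promoters came from RefSeq, GRCh38.p14.

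Genes and lists were chosen with earlier results of these data known. Named genes were the largest changes on each side of 8000 nucleotides with a mean of at least 1 CPM (15 rises and 15 falls below, 10 rises and 4 falls above), the 6 largest in each direction against the other mutants, and, from each list, at most 4 members ranked by p. The largest changes were taken only from called genes whose libraries did not overlap between the groups compared. Other genes named are called members of a list, genes that a list count is described by, or markers of the cells, and those were chosen after their values were seen. Some results are not reported here.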

Additional observations from a re-analysis of the deposited data

How the results depend on the processing

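Counts are given as higher, then lower, in R248Q. Against GFP, 645 and 190 genes were called, and the range over the 8 fits that each left out one library was 198 to 1839 and 27 to 1608. The counts were 991 and 448 with all genes of at least 1 count, 416 and 66 with DESeq2, 327 and 64 with only the groups compared, 421 and 469 with the length trend removed, and 268 and 247 with the trend removed and GFP replicate 1 left out. For genes under 8000 nucleotides (257 and 184), the one-library range was 33 to 1189 and 27 to 1577. The same settings gave 484 and 436, 113 and 64, 72 and 61, 243 and 293, and 154 and 148. Setting the boundary at 5000 or 10000 nucleotides gave 56 or 410 higher. For long genes (381 and 5), the one-library range was 159 to 631 and 0 to 23. The same settings gave 9 lower with all genes of at least 1 count, 1 lower with DESeq2, 250 and 2 with only the groups compared, 169 and 174 with the trend removed, and 107 and 98 with GFP replicate 1 also left out. With a boundary of 5000 nucleotides they were 582 and 26, and of 10000, 228 and 2. Against R175H and R273H (176 and 184), the one-library range was 15 to 825 and 27 to 746, and the settings gave 419 and 333, 116 and 113, 783 and 779 and 279 and 352, in the order above. The settings without a library or with only some groups rest on fewer libraries, and each fit shares a single estimate of spread over its groups. Against R175H and R273H the counts rose to 783 and 779 without the GFP group. Against GFP they fell to 327 and 64 with only the groups compared. The cause of these shifts was not tested.

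Replicate numbers did not pair the libraries, since same-numbered libraries of 2 groups had correlations of their deviations from -0.245 to 0.0745. A fit with the replicate number as a replicate block called 442 and 96 genes against GFP, 134 and 93 under 8000 nucleotides, 2 long genes lower, and 108 and 111 against the other mutants. Of 125 named genes called against GFP, 52 were called under each of the 18 alternatives, and 0 changed direction under any. Leaving out R248Q replicate 1 or 2 ended 66 and 62 of those calls. At 6800463 to 11788035 counts per library, 3 counts correspond to 0.256 to 0.443 CPM, which limits calls on rare transcripts.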

Other observations

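Some single genes outside the lists were picked for their values. CALB2, the calcium-binding protein calretinin, was at 131 and 122 CPM in GFP, 65.1 and 67.2 in R248Q, 126 and 137 in R175H and 78.5 and 84.4 in R273H (log2 fold change -0.94 ± 0.07, adjusted p = 1.50e-06 against GFP, log2 fold change -0.65 ± 0.06, adjusted p = 4.72e-05 against the other mutants), by edgeR's quasi-likelihood test. NOV, a matricellular CCN protein, was at 13.6 and 15.2 CPM in GFP and 7.84 and 8.05 in R248Q (log2 fold change -0.85 ± 0.13, adjusted p = 0.00104), and SGK1, a kinase induced by glucocorticoids, at 36.5 and 36.4 in GFP and 24.3 and 22.5 in R248Q (log2 fold change -0.64 ± 0.09, adjusted p = 5.98e-04). LDLRAD2, which overlaps HSPG2 by 1244 exon bases on the opposite strand, was at 11.2 and 9.65 CPM in GFP and 18.7 and 17.3 in R248Q (log2 fold change 0.79 ± 0.13), and whether reads of HSPG2 enter it cannot be told from these counts.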
